A study of Mus musculus with 96 samples.

Results

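LINE-1 (L1) elements are mobile DNA sequences that make up a large share of the mouse genome, and the 90 rows described here are every repeat row named r_L1 in the deposited expression table, out of 1217 repeat rows and 22936 rows in all. A row pools every genomic copy of one annotated L1 type, reads of both strands included, so it has no single position in the genome. The rows were divided by name into 6 young L1Md rows and 84 older rows. The older rows comprised 12 rodent rows (L1_Mus, L1_Mur, L1_Mm, L1_Rod and L1VL), 49 rows from L1MA to L1ME and 23 remaining L1M and L1P rows. The young rows covered 172 Mb of sequence, against 176 Mb for the older rows.

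Full-length L1 elements carry their own promoter and encode an RNA-binding protein and an endonuclease with reverse transcriptase, with which they copy themselves through an RNA intermediate. In the mouse, the A, Tf and Gf subfamilies, annotated as L1Md_A, L1Md_T and L1Md_Gf, include copies still able to move, L1Md_F types belong to an earlier generation, and L1M and L1P types are ancient remnants, mostly truncated. DNA methylation and histone methylation by SETDB1 hold many young copies silent, and naive pluripotent cells are known for transcribing some of them. Old fragments also lie inside genes, and a read in such a copy can come from the gene's own transcript. A count by type cannot tell these sources apart.

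The cells came from a single 96-well plate processed by single-cell tagged reverse transcription (STRT), which captures the 5′ end of transcripts and tags each well with a barcode. ES cell wells (R1, a mouse embryonic stem cell line) filled 48 positions in columns 1 to 6, fibroblast wells (MEF, mouse embryonic fibroblasts) 44 positions in columns 7 to 12, and negative controls the last 4. The labels name no treatment, genotype, age or separate culture, and they give R1 as the source line of the MEF wells as well, which conflicts with the cell type label. Wells with at least 10000 gene reads were kept, which left 45 ES cells and 44 MEFs. No doublet check was made, and cell type and plate side cannot be told apart.

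Marker genes went with the labels. Levels are given as reads per 1000000 gene reads (RPM), with repeat and spike-in reads outside the denominator. Pou5f1, a pluripotency factor, stood at 731 RPM in ES cells, against 2.59 in MEFs, whereas Col1a2, a fibrillar collagen chain, stood at 199 in ES cells, against 3627 in MEFs. Nanog had reads in 6 ES cells and no MEF. Of 7 markers of macrophages, endothelium and endoderm, none had a read in ES cells, Cd68, Pecam1, Gata4 and Sox17 had none in either type, and Kdr, Lyz2 and Csf1r had 200, 74 and 23 reads over all MEFs. Gene reads per well ran from 13576 to 703423 in ES cells (median 161206), from 63938 to 1883709 in MEFs (median 851801) and from 236 to 4662 in negative controls. MEF wells also held more gene reads for each read of the added spike-in RNA, with medians of 6.62 in ES cells, 152 in MEFs and 0.126 in negative controls. With 1 culture per type there is no test between types and no p-value. Spread is given as the SD over the 8 plate rows, each of which held both types, and it contains no variation between cultures. Intervals in brackets are exact 95% Poisson intervals on pooled reads, and they cover counting error only, as no molecular identifiers are mentioned.

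L1 reads were more frequent in ES cells than in MEFs relative to gene reads, and less frequent relative to spike-in reads. Over all cells of a type, the 90 rows held 38972 RPM in ES cells (339858 reads, interval 38841 to 39104), against 10570 in MEFs (371594 reads, interval 10536 to 10604). The ratio of ES cells to MEFs was 3.69-fold, or 1.88 on the log2 scale with an SD of 0.48 over plate rows, and it was above 0 in 8 of 8 plate rows, from 1.35 to 2.87. Cell by cell, ES cells had a lowest value of 9242, a median of 31787 and a highest of 727943, and MEFs had 5458, 10828 and 21871. The types overlapped, although 34 of 45 ES cells lay above the highest MEF. The 90 rows made up 12.2% of all repeat reads in ES cells, 7.68% in MEFs and 41.7% in the negative controls.

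The negative control wells held L1 reads too, and more of them per gene read than either cell type. The 4 wells had 4122, 3500, 2084 and 76 L1 reads, or 946281, 750751, 636725 and 322034 RPM. In raw reads the median was 5625 in ES cells, 8080 in MEFs and 2792 in negative controls. Per 1000 spike-in reads, the median was 217 in ES cells (range 37.7 to 661), 1898 in MEFs (range 513 to 6970) and 106 in negative controls (range 7.92 to 124). On that scale ES cells lay below the MEF median in 45 of 45 cells, the opposite order to that by gene reads, and pooled spike-in scaling gave a log2 ratio of -2.68. Over the 11054 genes with at least 100 reads, the median log2 ratio was -1.54 by gene reads and -6.10 by spike-in reads. The L1 total was 3.42 above that median under either, since a scaling shifts all rows alike. That distance sets a pooled sum against a median over single genes. As medians over rows with at least 20 reads, L1 rows stood at 0.24 and genes at -1.48 by gene reads.

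**Figure D1:**
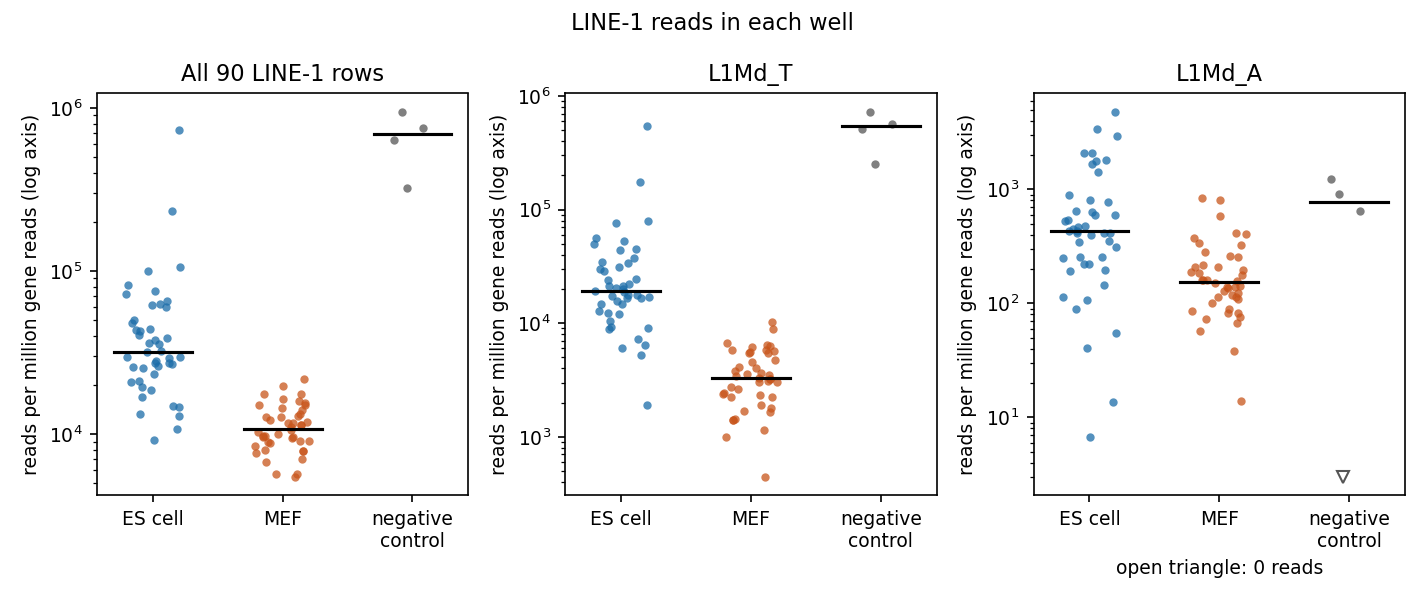
Reads per 1000000 gene reads (RPM) in each well (log axis) for all 90 LINE-1 rows, for L1Md_T and for L1Md_A. Each point is a well, bars mark medians, and an open triangle marks a well with 0 reads. For the total, 34 of 45 ES cells lie above the highest MEF, and the 4 negative controls lie between 322034 and 946281. By spike-in reads the order of ES cells and MEFs reverses.

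The young rows carried most of the gap by gene reads. They summed to 28554 RPM in ES cells, 4644 in MEFs and 646364 in negative controls, a log2 ratio of ES cells to MEFs of 2.62 (SD 0.58, above 0 in 8 of 8 plate rows). The older rows summed to 10418 in ES cells, 5926 in MEFs and 134509 in negative controls, a log2 ratio of 0.81 (SD 0.44, above 0 in 8 of 8 plate rows). Young rows supplied 73.3% of L1 reads in ES cells, 43.9% in MEFs and 82.8% in negative controls. Other repeats give a scale for these ratios. The 13 rows of B1 and B2, short elements that L1 enzymes mobilise, had a log2 ratio of 1.55 (SD 0.56), the 16 Lx rows, an older rodent L1 lineage under another name, 1.2 (SD 0.57), and the 16 rows of IAP, an endogenous retrovirus, 0.23 (SD 0.64). Scaling by spike-in reads shifts every such log2 ratio by -4.56, which gives -1.94 for the young rows and -3.75 for the older rows, so that both directions reverse while the distance between the classes stays.

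Per base of annotated sequence, young rows exceeded older ones in ES cells and not in MEFs. Pooled levels were 166 (young) and 59.3 (older) RPM per Mb in ES cells, and 26.95 (young) and 33.8 (older) in MEFs. The ratio of young to older rows, which is taken within a well and needs no scaling between wells, was 2.79 in ES cells (SD 0.52 over plate rows), 0.799 in MEFs (SD 0.093) and 4.90 in the negative controls. Single ES cells ran from 0.326 to 4.71 with a median of 2.97, and single MEFs ran from 0.226 to 1.74 with a median of 0.740. The ratio was above 1 in 43 of 45 ES cells, against 11 of 44 MEFs, and 41 ES cells exceeded the highest MEF. The plate rows did not overlap, at 1.57 to 3.18 in ES cells and 0.631 to 0.961 in MEFs. The 4 negative control wells, at 4.51, 4.64, 6.56 and 4.14, all lay above the ES cell median.

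**Figure D2:**
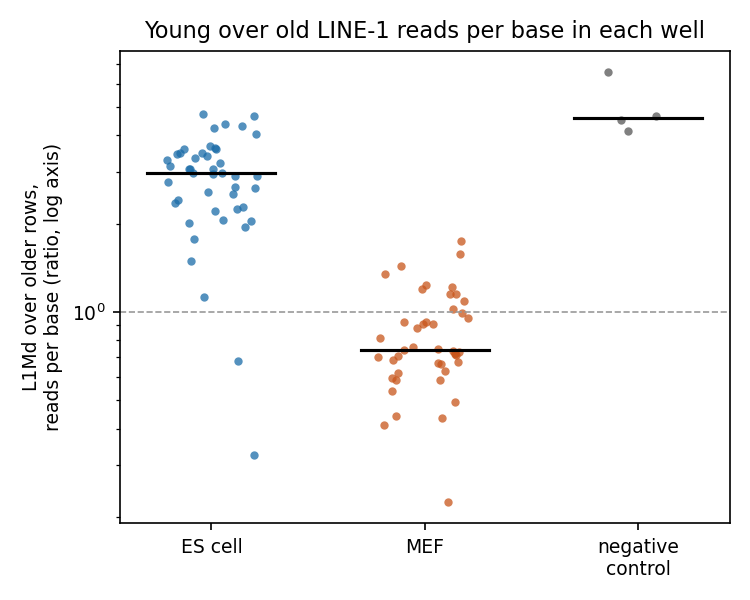
Ratio of reads per base in the 6 L1Md rows to reads per base in the 84 older rows, by well (log axis). Points are wells, bars are medians and the dashed line marks equal reads per base; 43 of 45 ES cells, 11 of 44 MEFs and 4 of 4 negative controls lie above it.

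Most young reads belonged to a single row. L1Md_T, the annotation of the Tf subfamily, had 24846 RPM in ES cells, 3294 in MEFs and 602299 in negative controls. Its raw reads per well had a lowest, median and highest of 104, 3609 and 19548 in ES cells and of 224, 2169.5 and 7643 in MEFs, and the 4 negative controls had 3164, 2632, 1690 and 59. The median control well, at 2161 reads, held about as many L1Md_T reads as the median MEF well. The log2 ratio of ES cells to MEFs by gene reads was 2.92 (SD 0.63, above 0 in 8 of 8 plate rows), and 37 of 45 ES cells lay above the highest MEF. L1Md_T made up a median of 63.4% of a well's L1 reads in ES cells, 30.3% in MEFs and 77.2% in negative controls. With L1Md_T left out, the remaining 89 rows had a log2 ratio of 0.96 (SD 0.47), and the ratio of young to older rows per base was below 1 in each pooled group, at 0.497 in ES cells, 0.318 in MEFs and 0.457 in negative controls. It was then below 1 in 42 of 45 ES cells and 44 of 44 MEFs.

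The L1Md_T reads of negative controls were subtracted from the cells on either of 2 scales. Subtracting the mean control well from each cell removed 39.2% of ES cell and 71.7% of MEF L1Md_T reads, and left 15361 RPM in ES cells, against 936 in MEFs, a log2 ratio of 4.04. Subtracting control reads in proportion to spike-in reads removed 48.5% in ES cells and 15.5% in MEFs, and left 13052 in ES cells, against 2786 in MEFs, a log2 ratio of 2.23. ES cells were higher by gene reads after both subtractions. By spike-in reads, the pooled L1Md_T ratio was -1.65, and the medians were 134 reads per 1000 spike-in reads in ES cells, 552 in MEFs and 80.9 in negative controls. The ES cell median was thus nearer to the control wells than to the MEFs on that scale.

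Per gene read, L1Md_T was highest in ES cell wells with few gene reads per spike-in read. The 4 ES cell wells with more spike-in than gene reads (replicates 2, 7, 8 and 30) held 290787 L1 RPM together, against 36880 in the other 41 ES cells and 10570 in MEFs. Their ratios of young to older rows were 4.66, 4.31, 4.71 and 4.05, within or just under the range of the negative controls. Over the 45 ES cells, L1Md_T per gene read and gene reads per spike-in read had a Spearman rho of -0.52, and over the 44 MEFs -0.07. Both measures contain gene reads, so these coefficients are descriptions. Without those 4 wells, the coefficient of variation of the L1 level over ES cells was 53.5%, against 188% with them and 33.2% in MEFs, and no other value recomputed without them moved beyond the spread over plate rows.

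**Figure D3:**
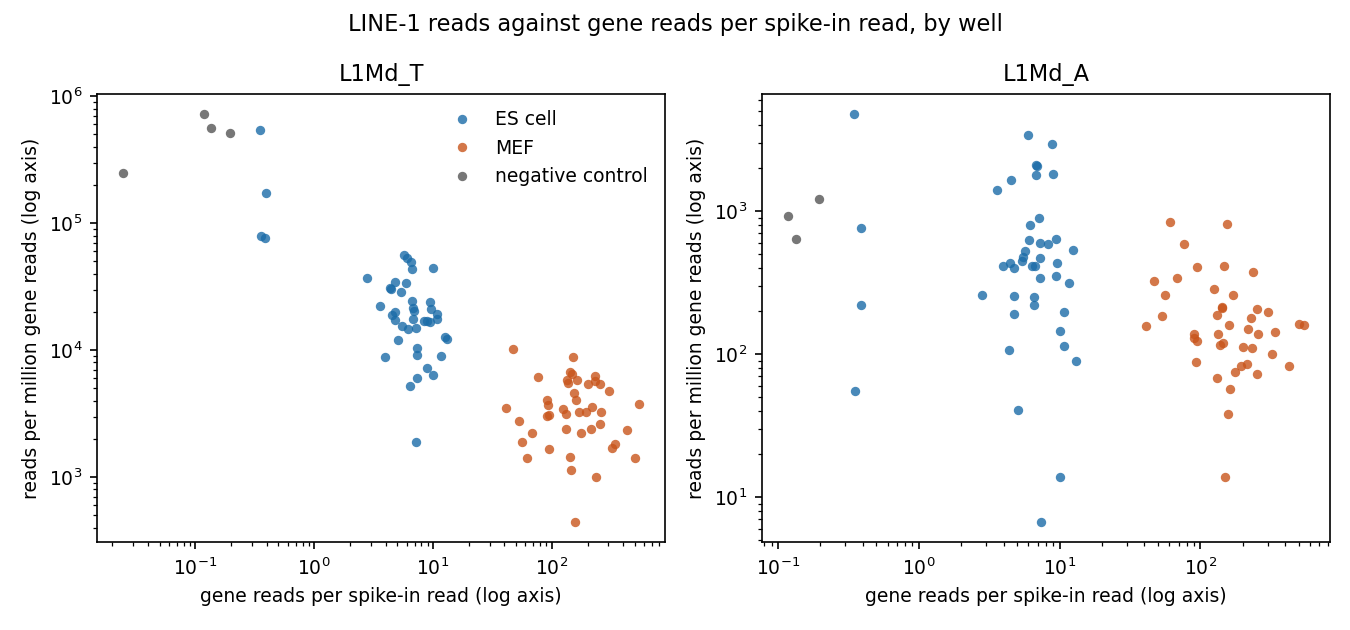
Reads per 1000000 gene reads (RPM) of L1Md_T and of L1Md_A against gene reads per spike-in read, by well (both axes log; wells with 0 reads of the row are not drawn). L1Md_T is highest in the negative controls and in the 4 ES cells with more spike-in than gene reads, whereas L1Md_A in negative controls, at most 1222, lies within the range of ES cells.

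L1Md_A is the other large subfamily with mobile members. It had 626 RPM in ES cells (interval 609 to 642), 204 in MEFs (interval 200 to 209) and 878 in negative controls, where only 11 reads fell, 4, 3, 4 and 0 by well. Raw reads per well had a lowest, median and highest of 1, 72 and 626 in ES cells and of 4, 112.5 and 917 in MEFs. The level in negative controls was 1.40 times that in ES cells for L1Md_A, against 24.2 times for L1Md_T. Subtraction of the mean control well removed 2.27% of its reads in ES cells and 1.68% in MEFs. The log2 ratio of ES cells to MEFs was 1.61 (SD 1.01, above 0 in 8 of 8 plate rows), 37 of 45 ES cells lay above the MEF median, and 10 lay above the highest MEF. In the 4 ES cells with more spike-in than gene reads, L1Md_A had 102 reads and 1419 RPM together, against 619 in the other 41 ES cells, and 80 of these reads lay in replicate 2, whose 4795 RPM was the highest of any ES cell. Its rho with gene reads per spike-in read over ES cells was -0.10, and its rho with L1Md_T was 0.06, both given as descriptions.

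The remaining L1Md rows all lay below L1Md_T. L1Md_F2, the longest row at 71.4 Mb, had 2644 RPM in ES cells, 933 in MEFs and 40233 in negative controls, a log2 ratio of 1.5 (SD 0.58, above 0 in 8 of 8 plate rows). L1Md_Gf, the shortest at 1.77 Mb, had 44.7 in ES cells and 8.19 in MEFs, a log2 ratio of 2.45 (SD 1.40, 8 of 8 plate rows) on 390 ES cell reads and 288 MEF reads. With each cell thinned to 20000 gene reads, it was detected in 21 of 42 ES cells, against 6 of 44 MEFs. Unthinned, 40 of 45 ES cells and 37 of 44 MEFs held a read. L1Md_F stood at 170 in ES cells and 70.97 in MEFs, a log2 ratio of 1.26 (SD 1.00, 7 of 8 plate rows). L1Md_F3 stood at 223 in ES cells and 134 in MEFs, and its log2 ratio of 0.74 (SD 1.17, 5 of 8 plate rows) was within the spread over plate rows.

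Per Mb, L1Md_T stood far above the other 5 young rows in both types. In ES cells L1Md_T had 534 RPM per Mb, followed by L1Md_F2 at 37.01, L1Md_Gf at 25.2, L1Md_A at 20.3, L1Md_F at 19.7 and L1Md_F3 at 17.01. In MEFs L1Md_T had 70.8, followed by L1Md_F2 at 13.1, L1Md_F3 at 10.2, L1Md_F at 8.23, L1Md_A at 6.63 and L1Md_Gf at 4.62. L1Md_F2 came after L1Md_T in both types, and the lower 4 kept no common order. Against the average of the older rows, at 59.3 in ES cells and 33.8 in MEFs, each young row except L1Md_T was lower per base in both types. That average is weighted by row length and is not the typical older row. As medians over rows, L1Md_T included, the ratio of young to older rows per base was 1.2 in ES cells and 0.455 in MEFs.

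Of the 90 rows, 77 had at least 20 reads over both types and were compared by the size of the ratio. The other 13 held 5 rows with no read in any kept cell (L1MEg2, L1MEa, L1P5, L1M3a and L1M2a1) and 8 with 1 to 19 reads. At least 2-fold higher in ES cells were 24 of the 77 rows (31.2%), at least 2-fold higher in MEFs were 26 (33.8%), and 27 were neither. By the same rule, 15.4% of 12818 measured genes and 29.1% of 705 other repeat rows were higher in ES cells, and 58.5% of genes and 38.6% of other repeat rows were higher in MEFs. Over the 77 rows together the shares were thus near those of other repeat rows, among which the Lx rows were counted. The median log2 ratio was 0.24 over the L1 rows, against -0.34 over other repeat rows and -1.48 over the 12818 measured genes. The classes differed among themselves. Of the 6 young rows, 5 were higher in ES cells and none in MEFs; of the 12 rodent rows, 7 and none; of 44 measured rows from L1MA to L1ME, 6 and 20; and of 15 measured L1M and L1P rows, 6 and 6.

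**Figure D4:**
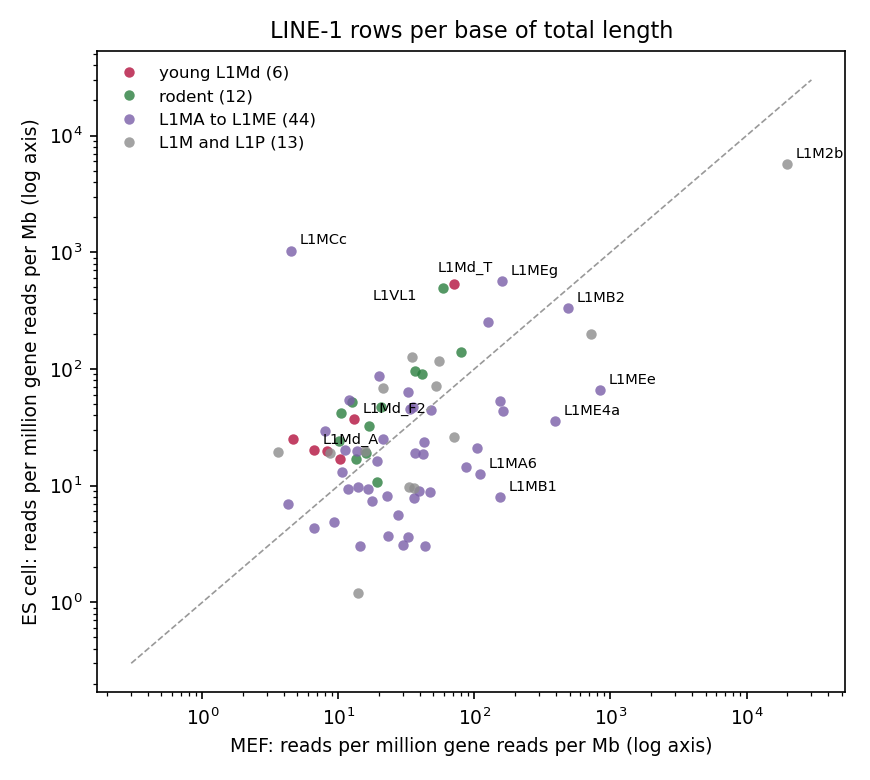
Level per Mb of row length in ES cells against MEFs (log axes) for rows with at least 20 reads and a read in both types. The dashed line marks equal levels; by gene reads the young rows (6) all lie above it, which spike-in scaling reverses, and L1MEe, L1ME4a and L1MA6 lie far below it, as does L1MB1, of whose MEF reads 91.1% come from 1 MEF.

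Among the rodent rows, which are younger than the L1MA to L1ME types, the summed level was 7214 RPM in ES cells, 2905 in MEFs and 84138 in negative controls, a log2 ratio of 1.31 (SD 0.40, 8 of 8 plate rows). L1VL1 had the largest ratio of these, with 1152 in ES cells, 136 in MEFs and 17482 in negative controls, a log2 ratio of 3.08 (SD 0.57, 8 of 8 plate rows). Its raw reads per well had a lowest, median and highest of 1, 131 and 939 in ES cells and of 6, 98 and 334 in MEFs, with 42, 94, 83 and 0 in the negative controls. L1VL1 covered only 2.32 Mb and reached 497 RPM per Mb in ES cells, close to L1Md_T, against 58.7 in MEFs. L1_Mm (2.04, SD 0.42), L1_Mus3 (1.99, SD 0.59), L1_Mur3 (1.39, SD 0.58) and L1_Mus2 (1.15, SD 0.44) had log2 ratios above 1 and above 0 in 8 of 8 plate rows. L1_Mur1, with 892 in ES cells and 506 in MEFs, had 0.82 (SD 0.55, 8 of 8 plate rows), and L1VL2, named after its value was seen, was the lowest rodent row at -0.83 (SD 1.40).

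Named rows differed in how closely their level went with that of L1Md_T from ES cell to ES cell. Spearman rho with L1Md_T over 45 ES cells was 0.94 for L1_Mur3, 0.91 for L1_Mus3, 0.89 for L1M2, 0.88 for L1VL1, 0.86 for L1Md_F2, 0.85 for L1MEg, 0.85 for L1_Mur1 and 0.82 for L1_Mm. The level in negative controls was 18.01, 19.7, 22.96, 15.2, 15.2, 18.1, 8.77 and 11.5 times that in ES cells for those rows in that order. Among the named rows with lower rho, only L1MA6 had a ratio of controls to ES cells above these. L1Md_F, with a rho of 0.52, had a ratio of 8.91, and the remaining named rows lay below 8.77. For L1_Mus2 rho was 0.20 and that ratio 2.87, for L1MB2 the values were 0.11 and 0.313, and for L1MA6, whose control reads lay almost all in 1 well, they were 0.28 and 589. L1MB2 and L1MA6 had reads in only 23 of 45 ES cells each. Over the 44 MEFs, rho with L1Md_T was lower for the rows listed first, from 0.47 for L1_Mur3 to 0.74 for L1_Mus3 and L1VL1. In MEFs it was 0.44 for L1_Mus2, 0.12 for L1MB2 and 0.01 for L1MA6. The levels share their denominator, the gene reads of a well, and near-identical copies can exchange reads between rows, so these values carry no test.

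From L1MA to L1ME, the sum differed between types by less than the spread over plate rows, and the count of rows higher in MEFs was near the background. The summed level was 1868 in ES cells, 2348 in MEFs and 30175 in negative controls, a log2 ratio of -0.33 (SD 0.76, above 0 in 2 of 8 plate rows), while the median over the 44 measured rows was -0.90. By name, L1MA had 1 row higher in ES cells and 3 in MEFs among 8 measured, L1MB 0 and 3 among 7, L1MC 1 and 6 among 10, L1MD 1 and 1 among 5, and L1ME 3 and 7 among 14. Over the 44 rows the share higher in MEFs was 45.5%, against 38.6% of other repeat rows and 58.5% of genes. L1MEe had 18.1 RPM in ES cells and 232 in MEFs, a log2 ratio of -3.68 (SD 1.99, above 0 in 0 of 7 plate rows with reads in both types). Its reads per well had a lowest, median and highest of 0, 0 and 49 in ES cells and of 0, 126.5 and 696 in MEFs. It had no read in a negative control. L1ME4a had 13.4 in ES cells and 147 in MEFs, a log2 ratio of -3.46 (SD 2.24, 0 of 7 plate rows), and also no control reads. L1MA6 had 24.5 in ES cells and 214 in MEFs, a log2 ratio of -3.13 (SD 1.82, 0 of 8 plate rows), and 178 of its 181 control reads lay in replicate 93. Per Mb in MEFs, L1MEe (840) and L1ME4a (390) exceeded L1Md_T (70.8), and in ES cells L1Md_T (534) exceeded L1MEe (65.7) and L1ME4a (35.5).

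L1MEg, another L1ME row, did not follow that pattern. It had 533 in ES cells, 151 in MEFs and 9659 in negative controls, a log2 ratio of 1.82 (SD 0.61, 8 of 8 plate rows). Per Mb, L1MEg stood at 563 in ES cells, above L1Md_T (534), and at 160 in MEFs. L1M2 had 685 in ES cells, 187 in MEFs and 15726 in negative controls, a log2 ratio of 1.87 (SD 0.70, 8 of 8 plate rows). L1MEg and L1M2 had a read in every kept cell of both types, which held for 12 of the 90 rows. Also above L1Md_T per Mb in ES cells were L1MCc (1035), with 98.5% of its ES cell reads in 1 cell, and L1M2b. L1M2b, named after its values were seen, covered only 2159 bases and stood at 5683 in ES cells and 19947 in MEFs.

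**Figure D5:**
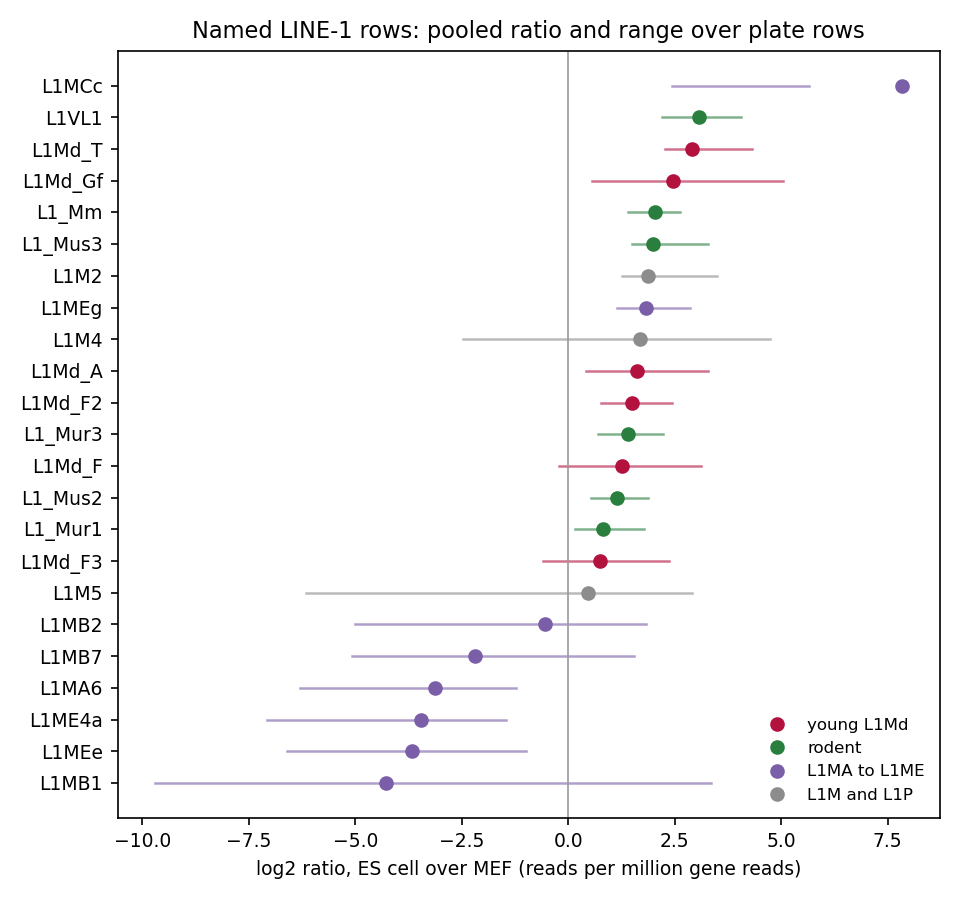
Log2 ratio of ES cells over MEFs for the named LINE-1 rows; points are pooled ratios and lines span the lowest to the highest plate row among those with reads in both types. Lines of L1VL1, L1Md_T and L1_Mm stay right of 0, and those of L1Md_F, L1Md_F3, L1M4, L1M5, L1MB2, L1MB7 and L1MB1 cross it. By spike-in reads every ratio shifts by -4.56. For L1MCc, 2 plate rows gave a ratio, and the point lies outside their range because most reads fell in another.

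Several ancient rows rested on 1 cell. Of 51 rows with at least 100 ES cell reads, 11 had over 50% of them in a single ES cell, and of 67 rows with at least 100 MEF reads, 7 had over 50% in a single MEF. L1MCc had 1011 of 1026 ES cell reads in replicate 21, and its log2 ratio of 7.84 was 4.36 without the highest well of each type. L1M4 had 1480 of 1768 ES cell reads in replicate 22, and its log2 ratio of 1.68 was -0.69 without the highest wells. L1MB1 had 3304 of 3628 MEF reads in replicate 91, its log2 ratio of -4.29 was -1.22 without the highest wells, and it was above 0 in 3 of the 5 plate rows with reads in both types. L1MB2 had 82.4% of its ES cell reads in replicate 14, and its log2 ratio of -0.55 was -2.88 without the highest wells. L1M5 had 58.1% in ES cell replicate 34, and its log2 ratio of 0.46 was -0.65 without the highest wells. L1M7, named after its values were seen, had 98.0% of its ES cell reads in replicate 24 and 98.0% of its MEF reads in replicate 61.

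Genes known to restrain or accompany L1 activity were read from a list of 27, of which 23 had at least 20 reads. By the same size rule, 11 were higher in ES cells, 7 in MEFs and 5 in neither, with a median log2 ratio of 0.79; the shares over all genes were 15.4% and 58.5%. L1td1, a gene derived from the L1 RNA-binding protein and expressed in pluripotent cells (chromosome 4, 98726734 to 98738480, plus strand, GRCm38), had 103 RPM in ES cells, against 1.11 in MEFs, with reads in 25 ES cells and 6 MEFs. The log2 ratio of L1td1 was 6.54 (SD 1.19 over 4 plate rows). Tet1, which oxidises methylcytosine, had 532 in ES cells, against 11.9 in MEFs (log2 ratio 5.48, SD 2.24). Uhrf1, which brings the maintenance methyltransferase to replicated DNA, had 213 in ES cells, against 24.5 in MEFs (log2 ratio 3.12, SD 2.52). That direction reversed by spike-in reads (log2 ratio -1.44), unlike those of L1td1 (1.98) and Tet1 (0.92). Dnmt3l, a cofactor of de novo DNA methylation, had 22.8 in ES cells, against 0.142 in MEFs, from 5 ES cells and 1 MEF.

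Apobec3, a cytidine deaminase that restricts retroelements, had 183 RPM in ES cells, against 1.74 in MEFs, although its reads came from 7 ES cells. Its log2 ratio was 6.72 (SD 2.23 over 3 plate rows). Among genes lower in ES cells, Yy1, a factor that binds L1 promoters in humans, had 10.2 in ES cells, against 163 in MEFs. Its log2 ratio was -4.00 (SD 2.32 over 5 plate rows), with reads in 8 ES cells. Samhd1, a nucleotide hydrolase that limits reverse transcription, had 6.54 in ES cells, against 36.04 in MEFs (log2 ratio -2.46, SD 1.67), with reads in 8 ES cells. Pphln1, a HUSH complex subunit, had 4.93 in ES cells, against 47.05 in MEFs (log2 ratio -3.25, SD 2.80), with reads in 6 ES cells. The HUSH subunits Mphosph8 (log2 ratio -0.88, SD 2.49) and Fam208a (0.46, SD 2.47) differed by less than the spread over plate rows. Trim28, the co-repressor that recruits SETDB1, had 143 in ES cells and 82.5 in MEFs (log2 ratio 0.79, SD 0.65), and Dnmt1, the maintenance methyltransferase, 79.01 in ES cells and 59.2 in MEFs (log2 ratio 0.42, SD 1.49). Trim28, Dnmt1, Mphosph8 and Fam208a were named after their values were seen. None of the 27 genes had a read in the negative control wells.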

How the data were processed

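The authors deposited one table of raw read counts per gene, repeat type and spike-in RNA in each well, with no normalization. Per the file headers, repeat rows group all genomic copies of a type on both strands, and another deposited column, of a unit other than counts, holds the total length in bases. The submitters' processing notes name Bowtie; its version and the genome build are not given in the sources used here. Gene positions are from GENCODE M21 (GRCm38).

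L1 counts were divided by gene reads (repeat and spike-in reads excluded) with Python 3.11.15, NumPy 2.4.6 and SciPy 1.17.1, expressed per 1000000 gene reads (RPM) and summed over cells of a type. Levels per base used the length column. The ratio calculation was run on simulated counts with known folds. That simulation held no control-well background and no rows resting on 1 cell, so it cannot speak to their effect on the ratios. Members, classes and gene lists were chosen with earlier results of these data known. Named rows were all L1Md rows, the 3 rows with most reads in each other class, and the 5 highest and 5 lowest ratios among rows with at least 100 reads (10 RPM added). Named control genes were the 8 with the largest ratios by the same measure. The closing section gives the alternatives tried.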

Additional observations from a re-analysis of the deposited data

Results flagged for a closer look

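In the negative controls, a group of 4 wells, 6 of 21 tested L1 measures had 1 well far from the other wells by Dixon's criterion. The usual chance rate of about 1 in 20 groups does not apply to 5 of them, because a row with reads in 1 control well only, even 1 read, always meets the criterion. The values are in reads per 1000000 gene reads. L1MA6 stood at 40900 in replicate 93, from 178 reads, against 3 reads in all other control wells together. L1M4 stood at 4080 in replicate 94, from 19 reads, with none in the other wells. L1Md_Gf stood at 918 in replicate 93, from 4 reads. L1M5 and L1MB2 stood at 429 and 215 in replicate 94, from 2 reads and 1 read. L1MB7 stood at 4240 in replicate 96, from 1 read in a well with 236 gene reads.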

How the results depend on the processing

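Of 608 values under alternatives, 493 stayed within the spread, or within 1.5 times for counts. Where the spread was wide, very different values counted as within it. L1MB1 (-4.29, SD 5.09) did so at -8.85 by spike-in reads and at -1.22 without its highest wells. Of those 493, 6 turned sign, all of ratios below 1 in size: L1M5 (0.46) was -2.91 in plate rows E to H, -0.76 by repeat reads and -0.65 without its highest wells, and L1MB2 (-0.55) was 0.84 by median-of-ratios, 0.08 without ribosomal protein genes and 0.81 in plate rows E to H. The log2 ratio of the L1 total (1.88) became -2.68 by spike-in reads, 3.28 by median-of-ratios, 2.52 without ribosomal protein genes and 0.66 by all repeat reads. It was 1.26 with control reads per spike-in read subtracted and 0.96 without L1Md_T. By spike-in reads these named ratios also turned: L1Md_T -1.65, L1VL1 -1.48, L1Md_Gf -2.11, L1_Mm -2.52, L1_Mus3 -2.57, L1M2 -2.69, L1MEg -2.74, L1M4 -2.89, L1Md_A -2.95, L1Md_F2 -3.06, L1_Mur3 -3.17, L1Md_F -3.30, L1_Mus2 -3.42, L1_Mur1 -3.74, L1Md_F3 -3.82, L1M5 -4.10 and Uhrf1 -1.44. By repeat reads L1_Mus2 was -0.07, L1_Mur1 -0.40 and L1Md_F3 -0.48, and L1M4 was -0.10 in plate rows A to D and -0.69 without its highest wells.

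Rows higher in ES cells (24) numbered 2 by spike-in reads, 42 by median-of-ratios and 6 by repeat reads, and rows higher in MEFs (26) numbered 75 by spike-in reads and 11 by median-of-ratios. Control genes higher in ES cells (11) numbered 3 by spike-in reads and 6 by repeat reads, and those higher in MEFs (7) numbered 19 by spike-in reads and 4 by median-of-ratios. The young over old ratio in ES cells (2.79) was 2.24 with the control mean subtracted, 2.06 with control reads per spike-in read subtracted, 0.497 without L1Md_T and 1.2 as a median over rows. In MEFs (0.799) it was 0.398 with the control mean subtracted, 0.504 without rodent rows, 0.318 without L1Md_T and 0.455 as a median over rows. The coefficient of variation of L1 reads over ES cells (188%) was 53.2% at a minimum of 50000 gene reads, 53.5% without replicates 2, 7, 8 and 30 and 141% without L1Md_T; over MEFs it was 33.2%. The control wells' pooled level ranged from 693000 to 832000 RPM with 1 well left out.

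The settings without replicates 2, 7, 8 and 30, those with control reads per spike-in read, L1Md_T or the highest wells removed, and the median over rows were chosen after seeing the data. The planned use of plate-wide unique reads was not run, because that column equals the sum over wells in all 1217 repeat rows. L1MA6 gave no value after control subtraction. No paired analysis was possible because no replicate numbers are shared between groups and no test was made; plate rows, which ES cells and MEFs share, gave ratios within rows, as described above. Counting depth limits the rows under 20 reads and the negative controls, where 1 read is a large level.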
